A study of Mus musculus with 2 samples.

Results

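The G2 and mitosis genes described here were the 51 symbols of a fixed list of genes used in late cell cycle, matched to the 32285 genes counted in each library, and every one of them had a row. The list was set by gene name, though with earlier results of these data known. A cell enters mitosis when cyclin B bound to Cdk1 becomes active. Aurora and Polo-like kinases, motor proteins and kinetochores then build the spindle and attach the chromosomes to it, and the anaphase-promoting complex (APC/C) ends the process by marking cyclin B and other proteins for destruction. Most of these genes are transcribed late in the cell cycle, so their RNA is a common measure of cycling cells, and in the growing hair follicle (HF) the matrix at its base is known for dense cell division.

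The cells came from the back skin of mice at P1, the day after birth. Tissue from which the epidermis had been removed enzymatically, to enrich HFs, was dissociated, and epithelial cells carrying the tdTomato reporter were sorted for droplet single-cell RNA sequencing. One library was labelled WT, and the other was labelled PADI4 cKO, in which K14-Cre acts on floxed Padi4 alleles (K14-Cre; Padi4 fl/fl; tdTomato). The Krt14 promoter drives Cre in the basal epithelium and what arises from it, so every epithelial lineage of the sort could carry the deletion while the dermis should not. How many animals each library pooled is not given in the sources used here. With 1 library per genotype there is no replicate, so no difference between the libraries was tested, and every interval below is a 95% interval that covers counting error only.

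Padi4, the targeted gene, was at a like level in both libraries. It had 98 unique molecular identifiers (UMIs, each standing for 1 captured RNA molecule) in WT, against 92 under the label PADI4 cKO, a log2 ratio of its share of UMIs of -0.11 (-0.54 to 0.31). These counts come from the 3′ end of the transcript, and a 3′ tag outside the deleted exons checks nothing, so the genotype is given below as a label. After filters, 7996 WT and 7357 labelled PADI4 cKO epithelial cells remained, with medians of 14687.5 and 16205 UMIs. The epithelial markers fitted the sort, with a Krt5 UMI in 96.7% and 97.9% of these cells and an Epcam UMI in 78.3% and 77.6%. Fibroblast marker genes summed to 696 and 729 UMIs of the genes scaled to 1000000 UMIs in all (CPM), melanocyte markers to 77.8 and 106 CPM, and the immune and endothelial lists each stayed at or below 1.20 CPM. The fibroblast list holds Dcn, which was also a leading gene of clusters 8 and 11, counted as epithelial below. The part of non-epithelial RNA in the results below was not tested. The libraries shared 14 cell barcodes. They also differed in sex: 26.0% of WT cells had UMIs of Xist and none of 4 Y-linked genes (Xist-only cells) and 62.4% had the reverse, while 98.3% of cells from the library labelled PADI4 cKO were Xist-only and none were Y-linked only. The other 925 WT cells (11.6%) and 122 cells of the other library (1.66%) had both signals or neither. They count in values over all cells and not in Xist-only values, so that filter changes more than sex. Library differences are given over all cells and in many cases over Xist-only cells.

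Cells were clustered after regression of cycle scores, and clusters were named only from marker genes. Of 13 groups of epithelial cells, 7 took a name: germinative layer-like (GL-like) matrix cells, lower proximal cup-like (LPC-like), inner root sheath-like (IRS-like), outer root sheath-like (ORS-like), interfollicular epidermis-like (IFE-like), cortex-like (Cx-like) and sebaceous gland-like (SG-like) cells. The other 6 stay as numbered clusters with their leading genes, namely cluster 6 (Smoc1, Cxcr4, Ncam1), cluster 7 (Tagln, Acta2, Fgf5), cluster 9 (Ednra, Krtap8-1), cluster 11 (Cldn10, Mt4, Msx1), cluster 12 (Phactr1, Plcxd3, Slit3) and cluster 16 (Krt75, Wnt11, Liph). SG-like cells had as many upper follicle markers (Lrig1, Plet1, Cst6, Gata6, Krt79) as sebaceous ones. Cx-like cells had as many GL markers (Hoxc13, Dlx3, Bambi, Bmp4, Msx1) as cortex ones. Both names came from a rule for ties, set after seeing the data. IFE-like cells had the same upper follicle markers beside those of epidermis. Groups were formed from the same cells' expression, so differences between groups are descriptions.

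Many late cell-cycle promoters are known to carry the element TTTGAA, the cell cycle genes homology region (CHR), bound by the DREAM and MuvB complexes, and CCAAT boxes bound by NF-Y. Both motifs were looked for on both strands in the 130 bases from 110 before to 20 after the RefSeq transcription start, on build GRCm38.p6. On the other strand TTTGAA reads TTCAAA. Likewise CCAAT reads ATTGG there, and the 2 motifs can share an end base. Promoters were found for 44 of the 51 members. TTTGAA lay in 19 of the 44 (43.2%) against 8.53% of all 27025 genes with a promoter of that length, CCAAT in 30 (68.2%) against 24.98%, and both in 1 promoter in 15 (34.1%) against 1.86%. Over all 32851 promoters, some genes having several, the shares were 7.39%, 22.1% and 1.60%. No match to either was found in this window for 11 members, which were Bub1b, Ube2s, G2e3, Birc5, Ndc80, Nuf2, Hjurp, Nusap1, Tacc3, Anln and Rangap1. Promoters of Aurkb, Smc4, Cdca2, Tpx2, Dlgap5, Ccna2 and Cdc25c were not analysed here. A match is a description of the letters and not a bound site.

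The promoter stretches below are those of members whose RNA differed most, and least, between mitosis-high cells and cells without the other members. Cdc20, the APC/C activator, was added singly and not by this measure. Within mitosis-high cells its RNA ran opposite to S phase genes, as did that of most members. Cenpa, whose RNA did so most, has CCAAT but not TTTGAA in its window and is not shown. The stretches are credited to RefSeq, run 5′ to 3′ on the gene's strand, and carry the motif matches in capitals. Hmmr (chr11:40733418-40733547, minus strand), Ube2c (chr2:164769819-164769948, plus strand) and Ndc80 (chr17:71526838-71526967, minus strand) had the largest differences among members with a promoter. Tmpo (chr10:91171600-91171729, minus strand), G2e3 (chr12:51348120-51348249, plus strand) and Hjurp (chr1:88277560-88277689, minus strand) had the smallest. The Cdc20 stretch is chr4:118437324-118437453, minus strand.
Hmmr: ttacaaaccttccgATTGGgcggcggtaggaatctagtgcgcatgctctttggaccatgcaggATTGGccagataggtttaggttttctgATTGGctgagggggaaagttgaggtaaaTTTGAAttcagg
Ube2c: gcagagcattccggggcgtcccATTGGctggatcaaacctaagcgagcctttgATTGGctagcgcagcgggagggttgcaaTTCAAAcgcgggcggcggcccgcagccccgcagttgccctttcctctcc
Ndc80: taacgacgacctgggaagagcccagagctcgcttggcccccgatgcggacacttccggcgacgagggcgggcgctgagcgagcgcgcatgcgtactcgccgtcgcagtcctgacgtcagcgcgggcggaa
Tmpo: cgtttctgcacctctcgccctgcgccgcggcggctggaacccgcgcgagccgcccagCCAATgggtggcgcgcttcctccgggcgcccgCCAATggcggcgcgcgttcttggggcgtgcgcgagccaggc
G2e3: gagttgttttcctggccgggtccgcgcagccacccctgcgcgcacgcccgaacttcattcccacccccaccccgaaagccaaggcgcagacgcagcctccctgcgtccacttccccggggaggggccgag
Hjurp: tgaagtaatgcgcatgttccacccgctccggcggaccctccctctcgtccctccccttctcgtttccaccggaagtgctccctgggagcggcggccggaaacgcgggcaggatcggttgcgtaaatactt
Cdc20: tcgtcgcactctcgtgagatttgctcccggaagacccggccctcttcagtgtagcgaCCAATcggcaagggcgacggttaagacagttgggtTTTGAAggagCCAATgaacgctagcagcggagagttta
Hmmr, Ube2c and Cdc20 hold both motifs in this window, the Tmpo stretch holds CCAAT alone, and Ndc80, G2e3 and Hjurp hold neither. Tmpo has 2 promoters in the RefSeq table, and the one not shown holds TTTGAA. Among the members shown, a large difference in RNA went with the presence of both motifs in Hmmr and Ube2c and with neither in Ndc80, whose ratio was 92.6 in WT and 25.2 in the library labelled PADI4 cKO.

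Mitosis RNA was abundant in these P1 epithelial cells and graded from GL-like to SG-like cells. The 51 genes together took 6715 CPM in WT and 6110 CPM in the library labelled PADI4 cKO, that is 0.671% of all WT UMIs. To compare cells of unlike depth, each cell was thinned to 2000 UMIs and called mitosis-high when at least 5 of them fell on the 51 genes. By that limit 54.6% (53.5 to 55.7) of WT cells and 51.2% (50.03 to 52.3) of cells from the library labelled PADI4 cKO were mitosis-high. The call marks a range and not a cell type, since 11.9% of WT cells lay at 4 or 5 UMIs. Cells with the highest doublet scores were mitosis-high more often (74.2% against 53.1% of the others in WT), and they were left in. Unthinned, 12 WT cells and 6 cells from the library labelled PADI4 cKO had no UMI of any member.

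GL-like cells, the dividing matrix layer, had the highest summed level, 9785 CPM (9734 to 9837) in 857 WT cells, and 88.5% of them were mitosis-high. LPC-like cells followed among the named classes with 8403 CPM and 73.8%, and IRS-like cells had 7862 CPM and 73.7%. All 3 lie at the base of the follicle, where the hair and its inner sheath are made. ORS-like cells stood in the middle of the order with 5918 CPM and 44.0% mitosis-high. IFE-like, Cx-like and SG-like cells were at the bottom, with 4009, 3788 and 3277 CPM and 27.9%, 33.3% and 24.6% mitosis-high. The intervals of the mitosis-high share overlapped between LPC-like and IRS-like cells and among the 3 lowest classes, so those neighbours could not be ordered by that share. Among the numbered clusters, cluster 11, led by Cldn10 and Mt4, had 8464 CPM, cluster 12 had 7943 CPM and the Krt75-led cluster 16 had 7464 CPM, while cluster 6 had 4318 CPM. The S phase genes had a flatter course, so the ratio of mitosis to S phase RNA in WT ran from 1.21 in SG-like to 1.93 in GL-like and 1.94 in cluster 9, with cluster 16 apart at 3.47.

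**Figure D1:**
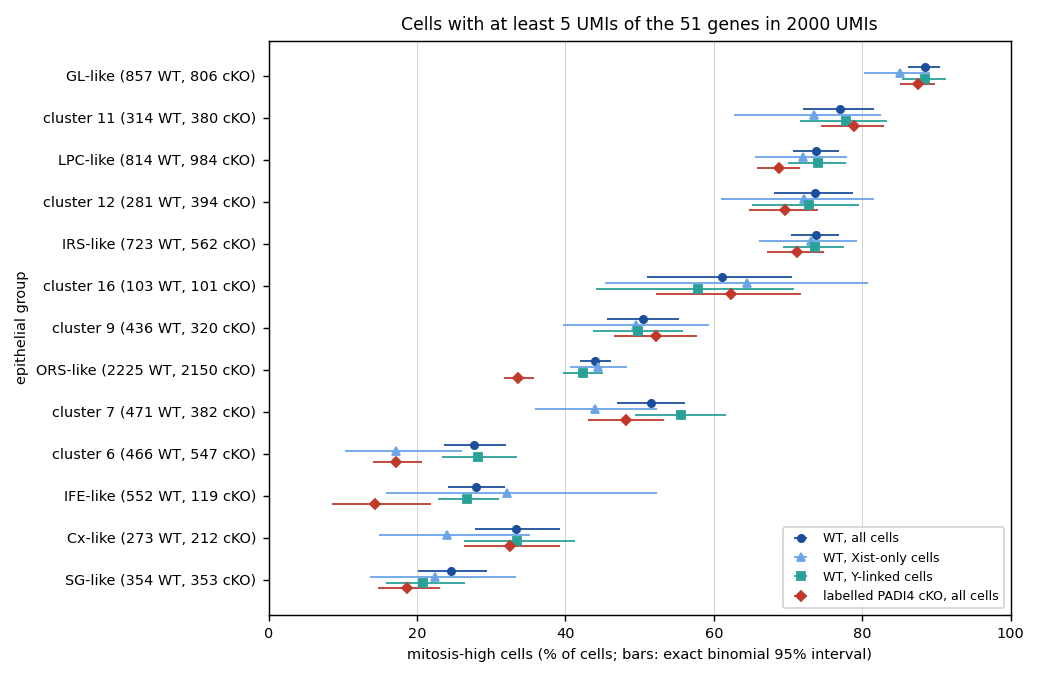
Share of cells called mitosis-high (at least 5 UMIs of the 51 genes in 2000 UMIs; x axis, %) in each of 13 epithelial groups (y axis), for all WT cells, WT Xist-only cells, WT Y-linked cells and all cells from the library labelled PADI4 cKO, with exact binomial 95% intervals that cover counting error only. GL-like cells sit near 88% in both libraries, while ORS-like cells sit at 44.0% in WT and 33.7% in the library labelled PADI4 cKO.

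Most single members kept this order. In WT, 41 of the 51 members were highest in GL-like cells (35 under the label PADI4 cKO), while 39 were lowest in SG-like cells. Against SG-like cells, 48 members were more than 2-fold higher in GL-like cells, where 8.17% of all genes tested were, and against Cx-like cells 44 were, where 8.77% of genes were. Against ORS-like cells, 3 members passed that limit in WT (3.28% of genes) and 43 did in the library labelled PADI4 cKO (4.80% of genes). The members' median log2 ratio there was 0.76 in WT and 1.44 in the other library, and in WT 50 of 51 intervals lay above 0. The highest group exceeded the lowest by 1.87-fold for Tmpo at the least and by 5.09-fold for Nek2 at the most.

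Members that left this order did so toward particular groups. Lbr, the lamin B receptor of the inner nuclear membrane, was highest in cluster 16 with 222 CPM, against 120 CPM in GL-like and 51.9 CPM in IFE-like cells. Nek2, a centrosome kinase, Cenpe, a kinetochore motor, and Hmmr, a spindle assembly factor, were also highest in cluster 16, at 47.9, 206 and 127 CPM, as were Ckap2 at 103 CPM and Tubb4b at 549 CPM. Rangap1, which acts in nuclear transport and at kinetochores, was highest in IRS-like cells (166 CPM). Hjurp, the chaperone that loads Cenpa onto centromeres, departed in SG-like cells, where it was highest at 96.0 CPM, against 84.6 CPM in ORS-like, 83.4 CPM in GL-like and 31.5 CPM in Cx-like cells. Its client Cenpa followed the common order with 308 CPM in GL-like and 78.7 CPM in SG-like cells.

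**Figure D2:**
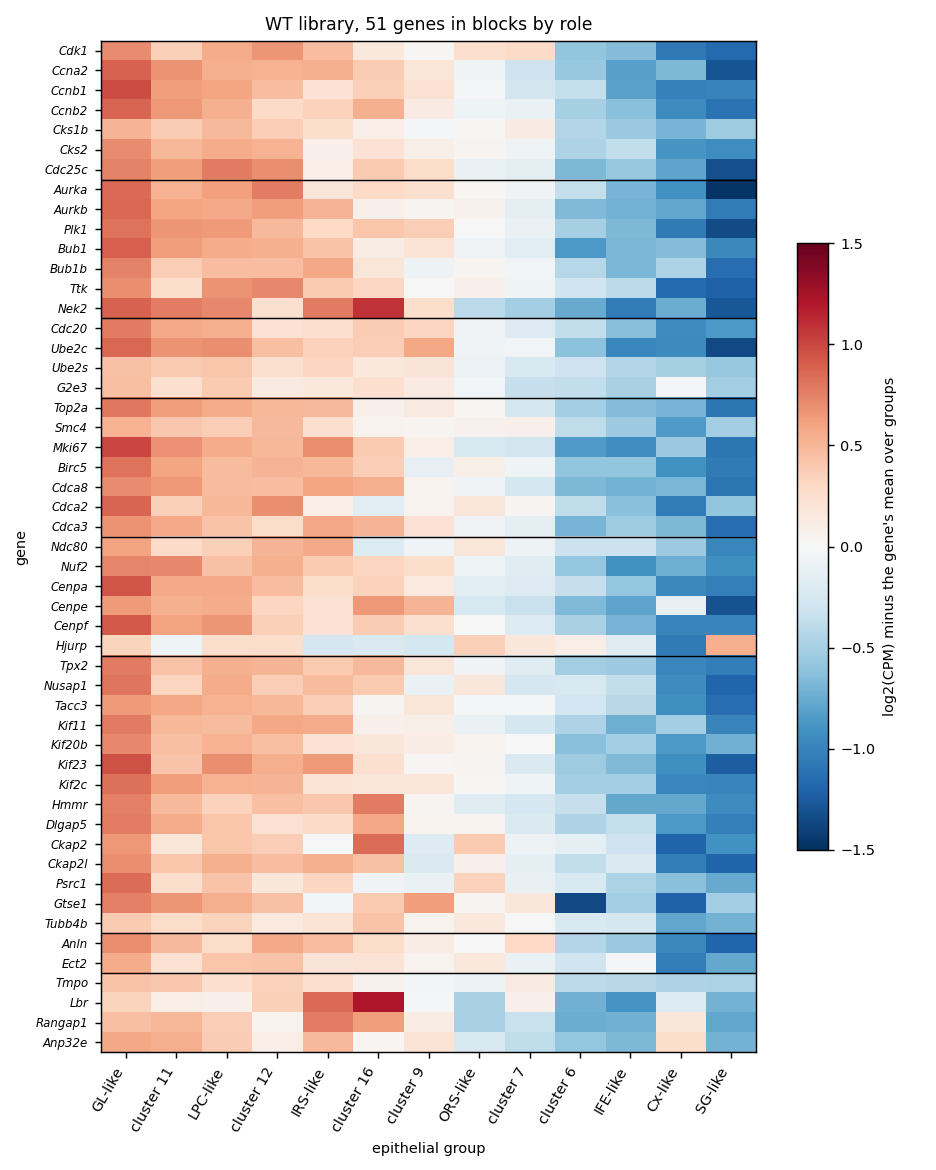
WT level of each of the 51 genes (rows, by role) in each of the 13 epithelial groups (columns, ordered by summed level), as log2(CPM) minus that gene's mean log2(CPM) over the groups (color). Most rows are highest in GL-like and lowest in SG-like cells, and the rows of Hjurp, Lbr and Rangap1 depart from this.

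Among the cyclins and Cdk1 partners, the small Cdk-binding proteins Cks2 and Cks1b had the most UMIs. Cks2 reached 207 CPM in WT and 187 CPM in the library labelled PADI4 cKO, and Cks1b 203 and 202 CPM. Cdk1, the mitotic kinase, had 163 and 167 CPM. Its cyclins were scarcer: Ccnb1 had 96.4 and 86.8 CPM, Ccnb2 97.8 and 80.4 CPM, and Ccna2 85.6 and 80.0 CPM, and the activating phosphatase Cdc25c had 31.1 and 29.97 CPM. The levels are UMI counts of 3′ ends, 1 per captured molecule, so they are not scaled by transcript length.

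Gene by gene, the mitotic kinases were scarce. Aurkb, the kinase of the chromosomal passenger complex, led with 68.6 and 68.2 CPM, followed by the spindle checkpoint kinase Bub1b with 56.0 and 49.8 CPM. The others ranged in WT from 25.9 CPM for Nek2 to 48.9 CPM for Bub1, with Plk1 at 39.0, Aurka at 35.6 and the checkpoint kinase Ttk at 34.1 CPM. Ubiquitin genes were more abundant: the APC/C-linked E2 enzymes Ube2s and Ube2c had 334 and 268 CPM in WT and 344 and 234 CPM in the library labelled PADI4 cKO. Cdc20, the APC/C activator, had 113 and 96.4 CPM, and the ubiquitin ligase G2e3 had 56.4 and 53.8 CPM.

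Mki67 and Top2a, both chromosome genes, had high levels. Mki67, whose protein coats mitotic chromosomes (chr7:135689784-135716361, minus strand, GRCm38), had 488 and 404 CPM, and Top2a, the topoisomerase that untangles sister chromatids (chr11:98992943-99024189, minus strand), had 431 and 398 CPM. The condensin subunit Smc4 had 302 and 278 CPM, and the passenger proteins Birc5 and Cdca8 had 177 and 153 CPM and 154 and 143 CPM. Cdca3 (125 and 103 CPM) and the phosphatase-binding Cdca2 (50.6 and 48.8 CPM) were the lowest of the role. At kinetochores, Cenpf had 307 and 256 CPM, the centromeric histone Cenpa 181 and 147 CPM and Cenpe 142 and 116 CPM, while the microtubule-binding Ndc80 and Nuf2 had 53.1 and 49.8 CPM and 24.8 and 24.8 CPM. Hjurp, at 73.2 and 72.1 CPM, was close to equal in the libraries.

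Spindle genes spanned the widest range. The tubulin Tubb4b had 444.3 and 408 CPM, a value that near-identical tubulin genes could share reads with, and Gtse1, a G2 phase microtubule-binding protein, had 7.38 and 7.01 CPM, the lowest of all 51. Tpx2, which activates Aurka on the spindle, had 123 and 111 CPM, and the motor Kif11, which slides microtubules apart, had 118 and 103 CPM. Nusap1 (113 and 104 CPM), Kif23 (91.2 and 82.1 CPM), Kif20b (86.6 and 78.8 CPM), Hmmr (79.4 and 68.1 CPM), Tacc3 (71.4 and 66.8 CPM), Ckap2l (68.4 and 64.2 CPM) and Ckap2 (66.1 and 58.3 CPM) lay between. Dlgap5, Kif2c and Psrc1 were lower, with 39.7, 35.2 and 30.8 CPM in WT. For cytokinesis, the ring scaffold Anln had 70.2 and 65.6 CPM and Ect2, which acts in cleavage furrow formation, 64.7 and 60.8 CPM. Of the last role, Tmpo, which binds lamins at the nuclear envelope, had 292 and 272 CPM, the histone chaperone Anp32e 244 and 224 CPM, Rangap1 101 and 95.7 CPM, and Lbr 96.6 and 103 CPM.

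The share of cells with a UMI varied widely between members. In WT, thinned to 2000 UMIs per cell, a UMI was found in 43.0% of cells for Tubb4b, 40.5% for Ube2s, 38.9% for Mki67 and 1.25% for Gtse1. Unthinned, at a median of 14687.5 UMIs, these shares were 83.5%, 86.1%, 63.6% and 10.1%. Ube2c and Ube2s show how level and breadth came apart, since Ube2c, with most of the Ube2s level, was detected in 38.7% of WT cells and Ube2s in 86.1%. No epithelial group lacks dividing cells, so the background of free RNA was read in droplets without a cell, where the 51 genes held 5981 CPM in WT and 5544 CPM in the other library, close to the level inside cells. Scaled by hemoglobin and collagen genes, which epithelial cells should lack, free RNA could account for at most 11.02% of member UMIs in WT and 6.94% in the library labelled PADI4 cKO. These ceilings are averages over all epithelial cells, equal to 740 and 424 CPM. They would be larger shares where members were low, as in WT cells below the mitosis-high limit (1322 CPM).

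Within the WT library the members ranged from genes found mostly in mitosis-high cells to genes present in most cells. For each gene, mitosis-high cells scored on the other 50 were compared with the about 500 cells that had none of the other 50 among 2000 UMIs. The median ratio of levels was 35.5, and 38 of the 51 exceeded 10. Hmmr had the largest well-counted ratio, 123 against 1.04 CPM, or 119-fold (54.7 to 324), and 60.3-fold (32.8 to 126) in the library labelled PADI4 cKO. Cdc25c had a ratio of 139 (38.4 to 1148) that rests on 2 UMIs in the cells without other members, and 53.0 in the other library. Ube2c had 417 against 4.28 CPM, or 97.4-fold (66.0 to 151), and 72.6-fold in the other library. Counted unthinned, these 3 genes were present in 1.00%, 0.401% and 4.94% of the cells that had none of the others among 2000 UMIs.

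At the other end, Hjurp differed 2.64-fold (2.30 to 3.04), G2e3 2.77-fold (2.37 to 3.25) and Tmpo 2.81-fold (2.64 to 3.002) in WT, and 2.16-, 3.18- and 2.88-fold in the library labelled PADI4 cKO. Lbr, Cks1b, Anp32e and Ube2s had ratios of 3.14, 3.38, 3.45 and 3.59. These genes were broad: Tmpo had a UMI in 65.2% and Ube2s in 70.5% of the cells without other members, against 95.2% and 94.9% of mitosis-high cells. Without the broad members the WT mitosis-high share was 41.1%. The members define the mitosis-high call, so these ratios describe how tightly each gene ran with the rest. The part of free RNA in the cells without other members was not tested.

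**Figure D3:**
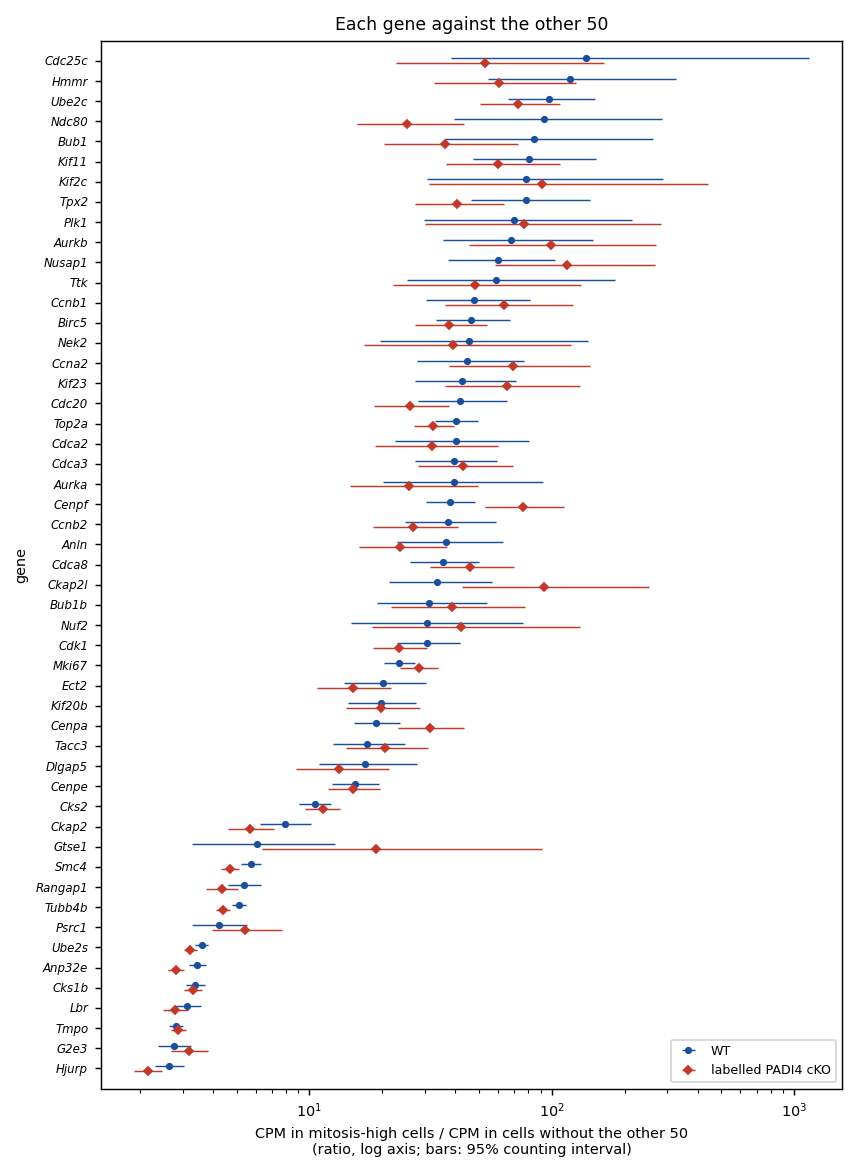
Ratio of each gene's CPM in mitosis-high cells (scored on the other 50 genes) to its CPM in cells with none of the other 50 among 2000 UMIs (x axis, log scale), per library, with 95% intervals for counting error. Hmmr, Cdc25c and Ube2c are near 100 in WT, and Hjurp, G2e3 and Tmpo are below 3.

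Other genes of mitosis, listed by name and not members, moved with them. Of 50 such genes, 46 were more than 2-fold higher in WT mitosis-high cells than in other cells, where 3.39% of all genes tested were, and their median log2 ratio was 3.37 against -0.08 over all genes. Of 44 S phase genes, 16 passed that limit, with a median of 0.73. S phase genes summed to 4654 CPM in mitosis-high and 2741 CPM in other WT cells. In GL-like cells they did not follow, with 4981 CPM in mitosis-high and 5836 CPM in the 99 other cells.

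Inside the 4368 WT mitosis-high cells, members differed in how they ran with the summed S phase genes. Cenpa had the lowest correlation over cells (Pearson's r -0.56), followed by Cdc20 (-0.52), Ccnb2 (-0.49), Cenpf (-0.47), Tubb4b (-0.39) and Ccnb1 (-0.39). Top2a (0.16), Tmpo (0.09), Ndc80 (0.08) and Cdk1 (0.07) had the highest. In all, 40 of 51 lay below 0, so most members were lower in those mitosis-high cells that had more S phase RNA. The order was alike in the other library (r 0.99 across 51 genes), where 47 were below 0. These are descriptions over cells of 1 library that share its depth and free RNA.

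Over all epithelial cells the libraries differed little in mitosis RNA. The summed log2 ratio, library labelled PADI4 cKO over WT, was -0.14 (-0.14 to -0.13), and -0.11 (-0.12 to -0.10) in Xist-only cells. No member passed 0.5 in either direction, the fold limit used here for a library difference, where 1.58% of 14902 genes tested lay above it and 3.60% below. The members' median was -0.12 against -0.01 over all genes, and 40 of 51 intervals lay below 0. The lowest were Cenpa (-0.30), Cdca3, Cenpe and Psrc1 (-0.29 each) and Ccnb2 (-0.28), and the highest was Lbr (0.10). S phase genes had the opposite sign, with a summed log2 ratio of 0.16 and 44 of 44 genes at or above 0. That difference was smaller in Xist-only cells, with 4245 CPM in WT and 4431 CPM in the other library, against 3961 and 4429 CPM over all cells.

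The small difference over all cells was made of unlike groups. ORS-like cells, the basal outer sheath of the follicle, had 5918 CPM of mitosis RNA in 2225 WT cells and 3959 CPM in 2150 cells from the library labelled PADI4 cKO, a log2 ratio of -0.58 (-0.59 to -0.57). The mitosis-high share was 44.0% (41.9 to 46.1) and 33.7% (31.7 to 35.7), at median depths of 12252 and 12960.5 UMIs. S phase RNA did not go with it over all cells, with 3827 and 4173 CPM. The ratio of mitosis to S phase RNA over all cells was 1.55 in WT and 0.95 in the library labelled PADI4 cKO. In Xist-only cells the level was 5222 CPM in 668 WT cells and 3937 CPM in 2116 cells of the other library, a log2 ratio of -0.41 (-0.42 to -0.39), with shares of 44.5% and 33.6%. S phase RNA in Xist-only cells was 4278 CPM in WT and 4173 CPM in the other library, slightly lower in the latter. Within the WT library alone, Y-linked ORS-like cells had 6257 CPM of mitosis RNA, a log2 ratio over Xist-only cells of 0.26 (0.25 to 0.28). Their mitosis-high share was 42.3% (39.7 to 45.1), against 44.5% (40.6 to 48.3) in Xist-only cells. Y-linked cells of this class thus had the higher level, while the intervals of the shares overlapped. Cells of either sex come from different animals, so sex cannot be told apart from animal here. The part of sex in the library difference was not tested.

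All 51 members were lower in ORS-like cells from the library labelled PADI4 cKO, and 37 lay below -0.5, where 3.11% of 12368 genes tested did. In Xist-only cells 21 members lay below -0.5, where 2.51% of genes did, and the members' median was -0.43 against -0.62 over all cells. Ube2c led with 219 CPM in WT and 105 CPM in the library labelled PADI4 cKO, a log2 ratio of -1.07 (-1.13 to -1.01), or -0.68 in Xist-only cells. Its share of cells with a UMI, thinned, was 15.3% and 6.51%. Mki67 had 358 and 210 CPM (-0.77), Top2a 382 and 240 CPM (-0.67), Cenpf 266 and 141 CPM (-0.92), and Cenpa 143 and 74.3 CPM (-0.95).

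By role, 6 of 7 cyclin and Cdk1 genes lay below -0.5 in ORS-like cells, with Ccnb2 at -0.88, Ccnb1 at -0.83, Ccna2 at -0.66, Cks2 at -0.60, Cdk1 at -0.52 and Cdc25c at -0.51, and Cks1b at -0.18. Of the kinases 5 of 7 did, namely Nek2 (-0.81), Plk1 (-0.80), Bub1b (-0.78), Aurkb (-0.62) and Aurka (-0.59), while Bub1 was at -0.47 and Ttk at -0.29. Cdc20 was at -0.79 and G2e3 at -0.55, and Ube2s at -0.17. Chromosome genes ran from Cdca3 at -0.91 through Cdca2 (-0.65), Birc5 (-0.64) and Cdca8 (-0.62) to Smc4 at -0.44, and kinetochore genes included Cenpe (-0.87), Ndc80 (-0.60), Nuf2 (just inside the limit, -0.50) and Hjurp (-0.24). The spindle role had 11 of 14 past the limit, which were Psrc1 (-0.97), Hmmr (-0.87), Nusap1 (-0.86), Kif23 (-0.84), Kif2c (-0.82), Kif11 (-0.79), Tpx2 (-0.75), Dlgap5 (-0.69), Ckap2l (-0.59), Tacc3 (-0.55) and Kif20b (just past it, -0.50), while Gtse1 was at -0.48, Ckap2 at -0.45 and Tubb4b at -0.43. Both cytokinesis genes passed (Anln -0.67, Ect2 -0.52). None of the nuclear envelope and other genes did, with Anp32e at -0.39, Tmpo and Rangap1 at -0.28 each and Lbr at -0.10. For 28 members the whole interval lay below -0.5.

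**Figure D4:**
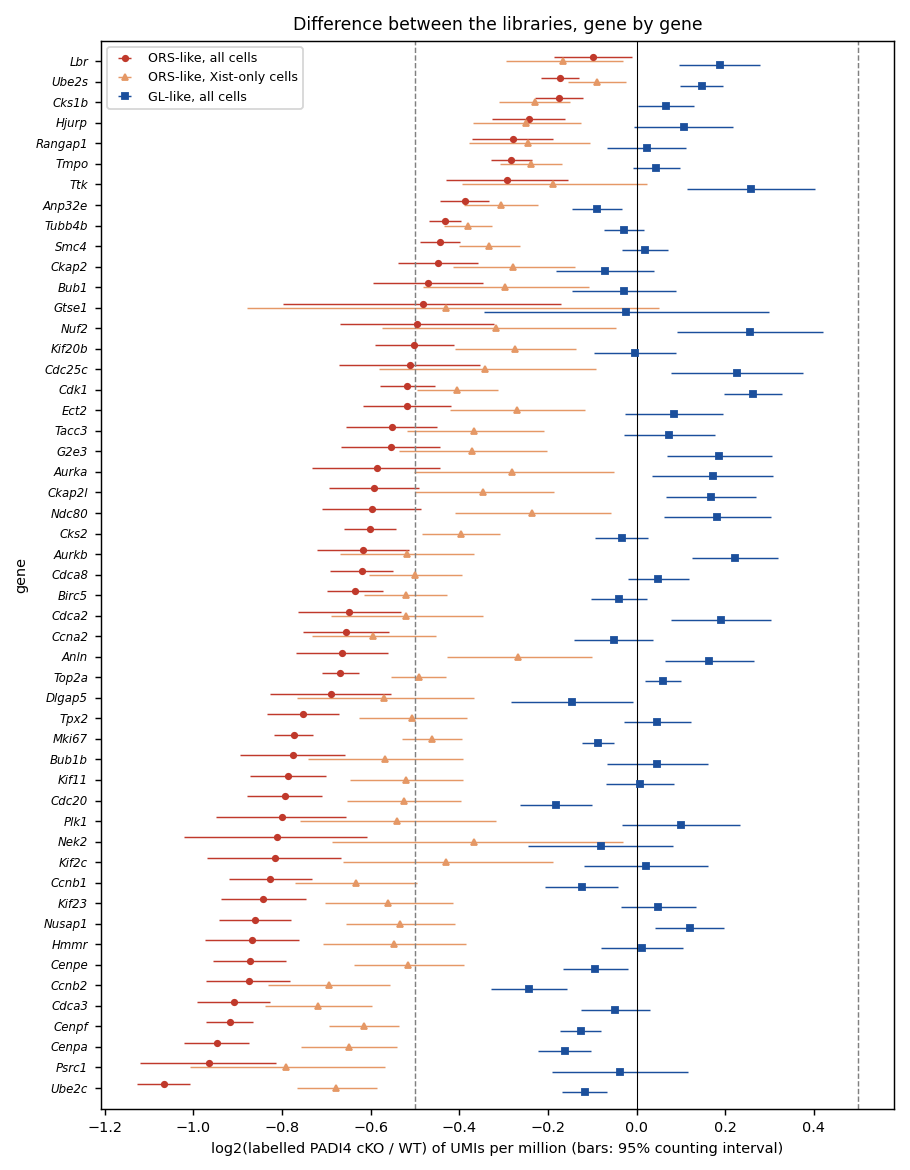
Log2 ratio of each gene, library labelled PADI4 cKO over WT (x axis), for the 51 genes (y axis, ordered by the ORS-like ratio), in all ORS-like cells, ORS-like Xist-only cells and all GL-like cells, with 95% intervals for counting error. Dashed lines mark -0.5 and 0.5. In ORS-like cells all 51 lie below 0, from Ube2c at -1.07 to Lbr at -0.10, while in GL-like cells they lie between -0.24 and 0.26.

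In ORS-like cells, members found mostly in mitosis-high cells tended to have lower library ratios than broad members. Across the 51 genes, the log2 ratio of mitosis-high cells to cells with none of the other 50 in WT and the ORS-like library difference had a Pearson's r of -0.60 and a Spearman's coefficient of -0.51. For the same measure Pearson's r was -0.39 with the difference in ORS-like Xist-only cells, -0.77 in cluster 6, -0.18 in LPC-like and 0.038 in GL-like cells. In all ORS-like cells, the correlation with S phase genes and the library difference had coefficients of 0.56 and 0.57. That relation was not particular to ORS-like cells, with coefficients of 0.66 and 0.70 in LPC-like, 0.60 and 0.57 in GL-like, and 0.43 and 0.48 in cluster 6. Genes are not replicates and both measures share the WT library, so these are descriptions. The first relation is also not separate from the lower mitosis-high share of ORS-like cells in the library labelled PADI4 cKO. Inside ORS-like mitosis-high cells the 51 genes took 9726 CPM in WT and 7373 CPM in the library labelled PADI4 cKO, and in the remaining ORS-like cells 1204 and 1234 CPM. The other 50 mitosis genes gave 26 below -0.5 with a median of -0.53, and none of the 44 S phase genes passed, with a median of 0.11 (-0.05 in Xist-only cells).

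**Figure D5:**
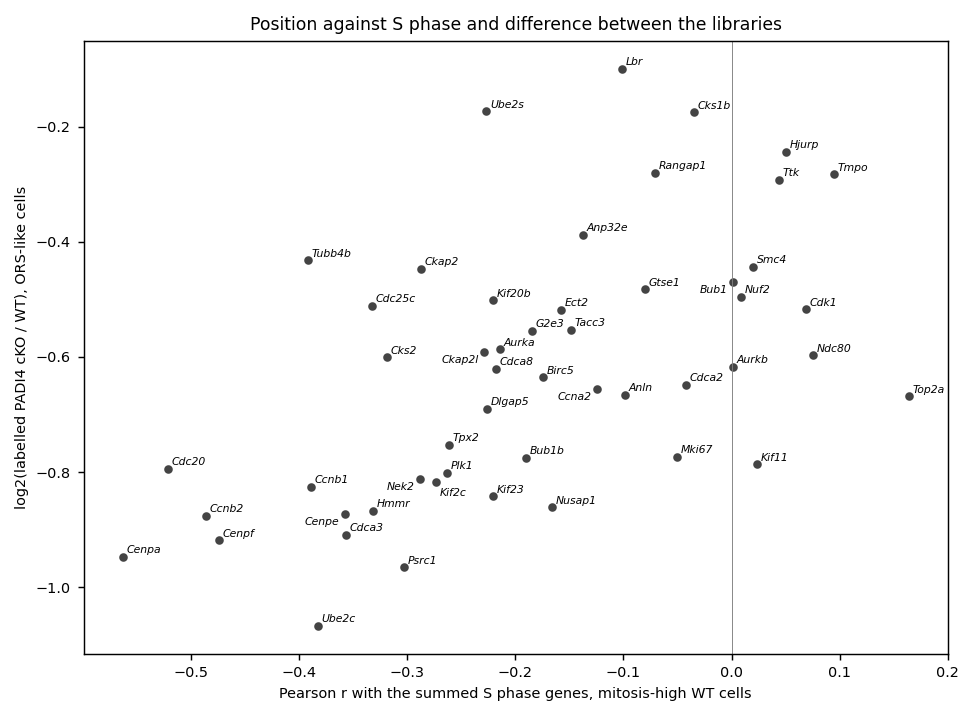
Log2 ratio of each of the 51 genes in ORS-like cells, library labelled PADI4 cKO over WT (y axis), against its Pearson's correlation with summed S phase RNA over the 4368 WT mitosis-high cells (x axis). Cenpa, Cdc20, Ccnb2 and Cenpf lie at the lower left, and Tmpo and Hjurp at the upper right.

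All 4 ORS-like clusters had less mitosis RNA in the library labelled PADI4 cKO. Cluster 1, led by Cpa6, Lmo3 and Slc25a48, had 6683 and 4092 CPM (log2 -0.71, and -0.39 in Xist-only cells), with mitosis-high shares of 58.0% and 35.9%. Cluster 2, led by Hhip and Pi15, had 7407 and 5342 CPM (-0.47, and -0.26) with 61.4% and 52.1%. Cluster 4, led by Pdlim3 and Ebf1 and the shallowest, had 2449 and 1812 CPM (-0.43, and -0.65) with near-equal shares of 10.95% and 11.8%. Cluster 15, the smallest, had 4186 and 3133 CPM (-0.42, and -0.12). Within WT, the log2 ratios of Y-linked over Xist-only cells were 0.44, 0.33 and 0.45 in clusters 1, 2 and 15, and -0.31 in cluster 4.

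In GL-like and IRS-like cells the libraries lay closer together. GL-like cells had 9785 and 9815 CPM (log2 0.004, -0.01 to 0.01), mitosis-high shares of 88.5% and 87.6%, and no member above 0.5, where 1.43% of genes were. The members ran there from Ccnb2 at -0.24 to Cdk1 at 0.26. IRS-like cells had 7862 and 7984 CPM (0.022), and again no member above 0.5, where 1.12% of genes were. In LPC-like cells the levels were 8403 and 7285 CPM (-0.21, -0.22 to -0.20), with no member below -0.5, where 1.54% of genes were, and Nek2 lowest at -0.46. This difference depended on how the class was drawn, since it was -0.56 at a coarser clustering and -0.33 with cells gated singly by markers. The 2 LPC-like clusters went apart over all cells, since cluster 5, led by Frem1 and Sp5, had 8117 and 6168 CPM (-0.40) and cluster 8, led by Nr4a3 and Shh, had 8803 and 9140 CPM (0.05). In Xist-only cells they were at -0.15 and -0.17. Cx-like cells had 3788 and 3758 CPM (-0.01), and SG-like cells 3277 and 2948 CPM (-0.15), where Mki67 (-0.64) and Kif11 (-0.56), 2 of 49 members tested, lay below -0.5, where 2.10% of all genes did.

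Cluster 6, led by Smoc1, Cxcr4 and Ncam1 with ORS and upper follicle markers together, had a larger difference over all cells than in Xist-only cells. It had 4318 and 2161 CPM (log2 -0.999, -1.03 to -0.97), and 45 of 50 members tested lay below -0.5, where 3.11% of genes did, led by Hmmr at -2.07. In Xist-only cells, 99 of them WT, the levels were 2902 and 2162 CPM (-0.42, -0.48 to -0.37), and the mitosis-high shares were 17.2% in both libraries. Y-linked WT cells of this cluster had 4314 CPM and a share of 28.2%. WT cells with both signals or neither count in the 4318 CPM and in neither of the other WT levels. The part of sex in this difference was not tested.

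IFE-like cells had epidermal and upper follicle markers together, so whether they were epidermis left by the dissection was not settled. They had 4009 CPM in 552 WT cells and 1634 CPM in 119 cells from the library labelled PADI4 cKO. The log2 ratio was -1.29 (-1.35 to -1.24). Of 48 members tested, 44 lay below -0.5, where 9.46% of genes did, led by Tpx2 at -3.31, Cenpf at -2.98 and Ube2c at -2.85. Lbr (-0.17), Hjurp (-0.23), Ube2s (-0.29) and Cks1b (-0.37) were the 4 within the limit. Mki67 had 222 and 40.0 CPM (-2.46) and Ccnb1 47.8 and 11.1 CPM (-2.06). This difference depended on how the class was drawn. It was -1.16 in Xist-only cells, 28 of them WT, but -0.54 at a coarser clustering, -0.02 with cells gated singly by markers and 0.42, the opposite direction, at a finer clustering.

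Cluster 16, led by Krt75, differed in the other direction, with 7464 and 8577 CPM in 103 and 101 cells (log2 0.20, 0.17 to 0.24). There 9 of 50 members tested lay above 0.5, where 1.84% of genes did, led by Ube2c (0.79), Ndc80 (0.77), Aurkb (0.63), Cdc20 and Tacc3 (0.60 each). Nek2 (-0.62) and Cenpe (-0.55), which were highest in this cluster in WT, lay below -0.5, and these 2 of 50 are a smaller share than the 5.99% of all genes that did. The mitosis-high shares, 61.2% and 62.4%, had overlapping intervals. In Xist-only cells, 31 of them WT, the summed ratio was -0.04 and the shares were 64.5% and 61.2%.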

How the data were processed

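Raw UMI counts per gene and droplet were deposited by the authors for each library, and were used as counts. The submitters' processing notes name Cell Ranger, Scanpy and the mm10 build. The chemistry reads 3′ ends. Kept cells had 2000 to 60000 UMIs over 1000 to 8000 genes, and no more than 20% mitochondrial and 1% hemoglobin UMIs. Their ribosomal shares lay between the 5th and 99th percentiles of cells that passed those limits, taken over both libraries together. This left 8070 WT and 7393 labelled PADI4 cKO cells. With Python 3.11.15 and scanpy 1.11.5, 1000 variable genes, 50 components and 15 neighbours gave 21 Leiden clusters at resolution 1.0 (leidenalg 0.10.2), after regression of cycle scores. A cluster took a name from at least 3 markers at 1.5-fold, and ties went to the list with more markers among its 10 leading genes, a rule set after seeing the data. Cluster 19, from 1 library, and cluster 17 stayed outside the comparisons, as did fibroblast-like and melanocyte-like cells. No doublets were removed. As an alternative the highest 6% of Scrublet scores in each library were left out, since Scrublet's own limit called 1 WT cell.

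Levels are summed UMIs scaled to 1000000 (CPM) of the cells of a group. Library ratios are log2, with 0.5 UMI added to each sum, exact binomial intervals and at least 100 UMIs per gene for a count past 0.5, the fold limit of the study's methods. Each library totalled 143938990 and 143945294 UMIs over all barcodes. Intervals on CPM are exact Poisson, and on shares exact binomial, all covering counting error only. The ratio script was tested on simulated data. The samples were grouped by the genotype in their labels, 1 library each, so no test was run.

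The members, lists and named-gene rule were chosen with earlier results of these data known. The rule accounts for all 51 members by role, gives in full the 2 with most UMIs in each role, those past 0.5 in all cells or a named class, and the 3 highest and 3 lowest in the ratio of mitosis-high to other cells. The comparisons of IFE-like cells and cluster 6, of Y-linked cells and of single clusters were added after seeing the data. Alternatives changed the UMI minimum, doublets, sex of cells, clustering, gating, thinning, free RNA, CPM base, centring, limits and members.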

Additional observations from a re-analysis of the deposited data

Results flagged for a closer look

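Over all cells, the summed mitosis RNA went in opposite directions in different groups, with a counting interval below 0 in 7 of them and above 0 in 4. The log2 ratios, library labelled PADI4 cKO over WT, were -1.29 in IFE-like cells, -0.999 in cluster 6, -0.58 in ORS-like cells, -0.22 in cluster 7, -0.21 in LPC-like cells, -0.15 in cluster 12 and -0.15 in SG-like cells. They were 0.022 in IRS-like cells, 0.028 in cluster 11, 0.054 in cluster 9 and 0.20 in cluster 16. In Xist-only cells the ratios of the first 7 groups, in that order, were -1.16, -0.42, -0.41, -0.031, -0.22, -0.13 and -0.21. Those of the other 4 were 0.12, 0.13, -0.081 (-0.110 to -0.052) and -0.041, so clusters 9 and 16 changed sign. With 1 library per genotype the differences between groups, and the part of sex in them, were not tested.

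The same genes had UMIs in cells outside the comparisons. Fibroblast-like cells had 3386 CPM in WT and 1602 CPM in the library labelled PADI4 cKO, and melanocyte-like cells 2605 and 4711 CPM in 26 and 10 cells. Cluster 17, led by Krt6a, had 6121 and 4175 CPM, and cluster 19, present in WT alone, had 4869 CPM.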

How the results depend on the processing

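Each value below is the log2 ratio of summed mitosis UMIs, library labelled PADI4 cKO over WT, unless named otherwise. No paired analysis was possible because the groups share a single replicate number, and with 1 library per group leaving 1 out was not possible. Many alternatives moved a ratio by more than its counting interval, which is narrow at these depths, and the cause was not tested.

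In ORS-like cells the ratio was lower than 0 in every alternative run. It was -0.41 in Xist-only cells, -0.66 with WT Y-linked cells, -0.63 from 1000 UMIs, -0.64 without doublets, -0.67 and -0.65 at resolutions 0.5 and 2.0, -0.68 without regression, -0.78 gated singly, -0.63 with free RNA subtracted, -0.57 without mitochondrial and ribosomal genes or centred on the median gene, -0.62 without the 5 members with most UMIs, and -0.56 with clusters weighted as in WT.
In LPC-like cells it was -0.22 from 1000 UMIs, in Xist-only cells, with WT Y-linked cells and at resolution 2.0, -0.56 at resolution 0.5, -0.27 without regression, -0.33 gated singly, -0.23 with free RNA subtracted and -0.18 weighted. In GL-like cells it was -0.079 from 1000 UMIs, -0.037 at resolution 2.0, 0.064 gated singly, -0.019 with WT Y-linked cells or free RNA subtracted, -0.011 without doublets, -0.013 without regression and -0.0100 thinned.
In IRS-like cells it turned to -0.0051 with WT Y-linked cells and -0.0075 when thinned, and was 0.0050 from 1000 UMIs, 0.050 without doublets, 0.046 gated singly, 0.12 in Xist-only cells, 0.037 at resolution 0.5 and 0.056 without regression. Over all epithelial cells it was -0.14 without doublets or with WT Y-linked cells, -0.11 in Xist-only cells, -0.17 thinned, -0.15 with free RNA subtracted and -0.12 centred. In IFE-like cells it turned to 0.42 at resolution 2.0 and was -0.02 gated singly.
The WT mitosis-high share was 71.1% and 38.5% with limits of 3 and 10 UMIs, 41.1% without the broad members and 53.4% without doublets. The count of members past 0.5 over all cells stayed at 0 in all 10 alternatives. Depth limits the scarce members most: Gtse1 had 939 WT UMIs, and Cdc25c 2 UMIs in the cells without other members.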

Other observations

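Genes outside the 51 that were highest in WT mitosis-high cells over other cells were mostly known cell-division genes. Depdc1b had 24.4 CPM in mitosis-high and 0.282 CPM in other cells, a ratio of 83.3, with 51.1 in the library labelled PADI4 cKO. The helicase Pif1 had ratios of 77.8 and 69.5, and Arhgef39 of 76.3 and 61.5. Next came Gm48646 (49.3 and 9.04, on 131 WT UMIs), Depdc1a (46.2 and 27.7), the spindle pole gene Aspm (43.9 and 37.8), Sapcd2 (41.1 and 63.0), Mxd3 (39.8 and 30.6), the kinesin Kif14 (38.1 and 33.5) and the histone gene Hist1h2af (37.3 and 24.97), whose reads near-identical histone genes could share. Depdc1a, Aspm and Kif14 are also among the 50 other mitosis genes.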
